A study of Mus musculus with 6 samples.

Results

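The class III POU genes Pou3f1, Pou3f2, Pou3f3 and Pou3f4 are 4 of the 53801 gene lines in the deposited count files, and all 4 were among the 17514 genes with enough reads to be tested. They were selected on their measured difference between the genotypes in these samples, so that difference is given below as a description, without a p-value. The samples were maxillary processes of mouse embryos at E12.5, profiled by bulk RNA-seq in 3 WT samples and 3 samples of wnt1cre; Rosa26Dlx2/- embryos, written Dlx2OE below. In the Dlx2OE embryos a Dlx2-3xFlag sequence, inserted at Rosa26 behind the CAG promoter and a stop cassette, is switched on by Cre under wnt1 control, which is active in neural crest cells and their descendants and not in the facial epithelium. The inserted allele was made on a C57BL/6J background, and the WT mice that the paper describes as purchased were C57BL/6J. The background of the wnt1cre line is not given, nor is that of the WT embryos sequenced. The Dlx2OE embryos carry Cre as well as the inserted allele, and the effects of these cannot be told apart here. The RNA came from 7 littermates according to the labels, and the methods of the paper name a different number. The embryos behind each of the 6 samples are not given, and the p-values below measure the spread between these RNA samples. Reads of Dlx2 cannot be divided between the endogenous gene and the inserted copy. Dlx2 was counted 1255, 1056 and 1409 times in WT and 3521, 4102 and 3336 times in the Dlx2OE samples, and rose 3.03-fold (log2 fold change 1.60 ± 0.12 SE, edgeR adjusted p = 0.00241).

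POU proteins are transcription factors that bind DNA with a POU-specific domain and a POU homeodomain joined by a linker. Class III members are best known from the developing nervous system, where they act in neural progenitors, often together with SOX proteins on neighbouring sites, and most of them are encoded by genes without introns. Pou3f1 (Oct6, Tst1 or SCIP) is known from the maturation of myelinating Schwann cells, Pou3f2 (Brn2) from neurons, neural progenitors and melanoma cells, Pou3f3 (Brn1) from the cerebral cortex and the kidney and from craniofacial skeletal development, and Pou3f4 (Brn4) from the inner ear, where its loss causes X-linked deafness. Pou3f2 and Pou3f3 overlap in function in the cortex.

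In the GENCODE M21 annotation of GRCm38 (mm10), each of the 4 genes has 1 transcript with 1 exon, so all exon positions given here are also the gene's ends. Pou3f1 (ENSMUSG00000090125) lies at chr4:124656807-124660655 on the forward strand, and Pou3f2 (ENSMUSG00000095139) at chr4:22482780-22488366 on the reverse strand. Pou3f3 (ENSMUSG00000045515) lies at chr1:42695768-42703176 and Pou3f4 (ENSMUSG00000056854) at chrX:110814280-110817207, both on the forward strand. The exons are 3849, 5587, 7409 and 2928 bases long from Pou3f1 to Pou3f4, of which 1347, 1335, 1491 and 1083 are coding. Translated by script, the coding sequences give proteins of 449, 445, 497 and 361 residues. All 4 proteins align without a gap over 161 residues, and 141 of these (87.6%) are the same in all 4. The stretch covers residues 241 to 401 of Pou3f1, 260 to 420 of Pou3f2, 307 to 467 of Pou3f3 and 182 to 342 of Pou3f4, and holds the DNA-binding domains. Within it Pou3f2 and Pou3f3 are the closest pair, with 97.5% identity, and Pou3f1 and Pou3f4 the most distant, with 87.6%. Over the whole aligned proteins the identity of a pair is between 43.8% and 54.6%. The rest of the proteins differs in its repeats of single residues. Pou3f3 has 8 runs of at least 5 identical residues, the longest of 16 alanines, Pou3f1 has 6, the longest of 9 alanines, and Pou3f2 has 4, the longest of 23 glutamines. Pou3f4 has none.

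The coding sequence of the homeodomain stretch is shown because near-identical proteins raise the question whether reads of the 4 genes can be told apart. Each line holds 20 codons from the GENCODE M21 transcript around the third helix of the homeodomain, the helix that reads the DNA bases, and capitals mark bases that differ from Pou3f3. They are coding bases 1132 to 1191 of Pou3f1, 1189 to 1248 of Pou3f2, 1330 to 1389 of Pou3f3 and 955 to 1014 of Pou3f4.
Pou3f1: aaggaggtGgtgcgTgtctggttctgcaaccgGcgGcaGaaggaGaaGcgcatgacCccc
Pou3f2: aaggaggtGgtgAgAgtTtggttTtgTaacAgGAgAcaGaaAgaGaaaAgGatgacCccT
Pou3f3: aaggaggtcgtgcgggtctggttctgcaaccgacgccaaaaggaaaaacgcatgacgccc
Pou3f4: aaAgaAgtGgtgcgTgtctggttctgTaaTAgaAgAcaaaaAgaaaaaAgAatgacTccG
The encoded residues are the same in all 4 genes, with 0 of 20 differing, while 8, 17 and 14 of the 60 bases of Pou3f1, Pou3f2 and Pou3f4 differ from Pou3f3. Over the whole transcripts, the longest stretch that any pair of the 4 genes shares exactly is between 23 and 38 bases. The sequenced reads were 150 bases long.

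The promoters are shown because the 4 genes differed between genotypes in the same direction. The RefSeq promoter table (GRCm38.p6) holds entries for 3 of the 4 genes, and the 250 bases before the RefSeq start were searched. Capitals mark the letters CCAAT on either strand (ATTGG where it reads on the reverse strand), the core of the CCAAT box that many ubiquitous promoters carry. Pou3f3 is read from chr1:42695518-42695767 on the forward strand and Pou3f2 from chr4:22488367-22488616 on the reverse strand. For Pou3f4 the RefSeq start lies inside the GENCODE transcript, and only the 151 bases before that transcript are printed, chrX:110814129-110814279 on the forward strand.
Pou3f3: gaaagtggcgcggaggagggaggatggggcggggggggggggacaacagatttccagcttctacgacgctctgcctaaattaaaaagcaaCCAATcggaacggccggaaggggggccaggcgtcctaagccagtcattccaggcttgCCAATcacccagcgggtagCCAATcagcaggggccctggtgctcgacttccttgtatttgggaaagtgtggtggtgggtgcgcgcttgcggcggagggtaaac
Pou3f2: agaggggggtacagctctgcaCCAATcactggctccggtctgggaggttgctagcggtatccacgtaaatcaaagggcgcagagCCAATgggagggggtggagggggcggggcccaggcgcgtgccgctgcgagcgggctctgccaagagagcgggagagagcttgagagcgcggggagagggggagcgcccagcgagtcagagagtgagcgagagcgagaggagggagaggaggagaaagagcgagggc
Pou3f4: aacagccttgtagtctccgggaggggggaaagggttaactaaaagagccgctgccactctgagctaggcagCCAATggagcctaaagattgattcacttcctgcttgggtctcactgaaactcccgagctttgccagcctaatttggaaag
The 250 bases hold 3 copies of CCAAT for Pou3f3, 2 for Pou3f2 and 3 for Pou3f4, of which 1 is in the printed bases, counted on both strands. Of 32851 RefSeq promoters of the same length, 33.8% hold at least 1 copy, 10.1% at least 2 and 2.79% at least 3. TAATTA, the core letters that many homeodomain proteins bind, occurs in none of the 3 sequences and in 4.84% of all promoters. The octamer ATGCAAAT, after which the octamer-binding POU proteins are named, is likewise absent from the 3 and present in 1.6% of all, and TATAAA is absent from the 3 and present in 12.4% of all. These counts describe the letters in this window and no binding was measured.

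All 4 class III POU genes had higher levels in every Dlx2OE sample than in every WT sample. Over all genes tested, 16.7% showed such a lack of overlap with Dlx2OE higher. Of the 4 genes, 3 (Pou3f1, Pou3f3 and Pou3f4) passed the thresholds for upregulation (log2 fold change above 1 with an adjusted p under 0.05), which 1.5% of all genes passed. Because the genes were chosen by this difference, nothing is read from either count. Levels are given as CPM, the count of a gene relative to all counts on genes of its sample, scaled between samples by the TMM method, and the SDs are over 3 samples per genotype.

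Pou3f3 was the most abundant of the 4 genes in both genotypes. It had 50.3, 41.7 and 46.2 CPM in WT samples 1, 2 and 3, from 1472, 1258 and 1440 counts, and 117, 174 and 191 CPM in Dlx2OE samples 1, 2 and 3, from 3459, 5471 and 5171 counts. The genotypes did not overlap, and the lowest Dlx2OE sample was 2.32 times the highest WT sample. Mean levels were 46.1 ± 4.28 CPM (WT) and 161 ± 38.9 CPM (Dlx2OE, with SDs over n = 3 each), a 3.49-fold difference (log2 fold change 1.80 ± 0.19 SE). In rank among all genes tested, Pou3f3 moved from the percentile 70.3 of the WT mean to 92.9 of the Dlx2OE mean. With any 1 sample left out the log2 fold change was between 1.66 and 1.98.

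Pou3f4 was low in WT tissue, with 0.752, 1.73 and 1.12 CPM from 22, 52 and 35 counts. In the Dlx2OE samples it had 7.26, 6.59 and 5.10 CPM from 215, 207 and 138 counts. The Dlx2OE samples were close to each other, at 17.5% of their mean as SD, and all lay above the WT samples, which spread more widely at 41.0%. Mean levels were 1.20 ± 0.492 CPM (WT) and 6.32 ± 1.11 CPM (Dlx2OE, with SDs over n = 3 each), a 5.25-fold difference (log2 fold change 2.39 ± 0.33 SE), with a range of 2.14 to 2.74 when any 1 sample was left out.

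Pou3f1 had 0.615, 0.564 and 0.738 CPM in the WT samples, from 18, 17 and 23 counts. The Dlx2OE samples had 8.51, 3.22 and 4.69 CPM, from 252, 101 and 127 counts. The WT samples differed little, while Dlx2OE sample 1 was 2.65 times sample 2, and the genotypes did not overlap. Mean levels were 0.639 ± 0.0892 CPM (WT) and 5.47 ± 2.73 CPM (Dlx2OE, with SDs over n = 3 each), an 8.51-fold difference and the largest fold of the 4 genes (log2 fold change 3.09 ± 0.40 SE). It ranged from 2.61 to 3.36 with 1 sample left out, and the call as upregulated was lost without WT sample 1 and without WT sample 2. The antisense gene Gm2164 covers 8.57% of the Pou3f1 exon, at mean levels of 0.0228 CPM in WT and 0.0909 CPM in Dlx2OE, and the library kit does not mark the strand. Of the Gm2164 exon, 77.8% is shared, and when strand is not used a read over both genes is counted for neither. The level of Gm2164 therefore cannot show how much antisense RNA covers Pou3f1.

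Pou3f2 was the lowest of the 4 genes. The WT samples had 0.376, 0.531 and 0.545 CPM, from 11, 16 and 17 counts, and the Dlx2OE samples had 0.911, 1.34 and 2.81 CPM, from 27, 42 and 76 counts. Dlx2OE sample 1 was nearest to the WT samples, at 1.67 times the highest of them, and Dlx2OE sample 3 was 3.08 times Dlx2OE sample 1. Mean levels were 0.484 ± 0.0939 CPM (WT) and 1.69 ± 0.994 CPM (Dlx2OE, with SDs over n = 3 each), a 3.45-fold difference (log2 fold change 1.78 ± 0.47 SE). Without Dlx2OE sample 3 the log2 fold change was 1.21. Pou3f2 was not called in the main test, and was called by DESeq2, without the filter on low counts, and without Dlx2OE sample 1.

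**Figure D1:**
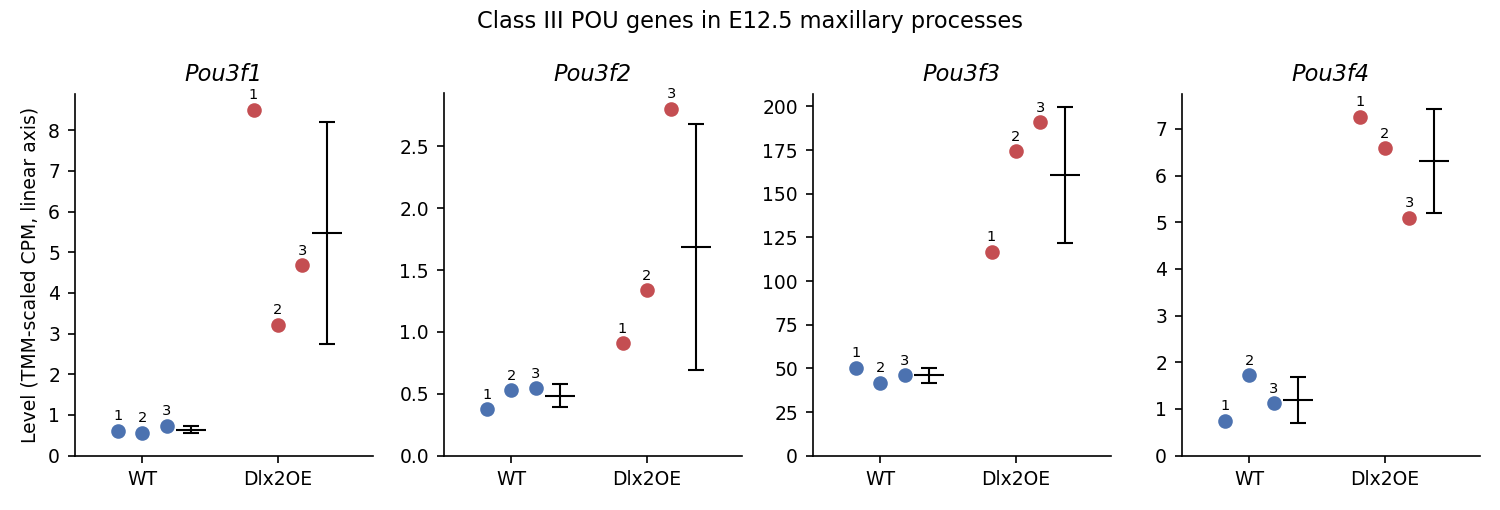
Levels of the 4 class III POU genes in each sample, as TMM-scaled CPM on linear axes that differ between panels. Points are samples, numbered as in the labels, with bars for the mean ± SD of 3 samples. In each panel all Dlx2OE points lie above all WT points, with the narrowest gap for Pou3f2.

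For genes without introns, reads from genomic DNA cannot be told from reads of RNA by splicing, so the level of other intronless genes was measured. The 1077 olfactory receptor genes, whose coding part is also intronless and which are silent outside sensory neurons, had between 0.000938 and 0.00863 CPM per kilobase of exon in the 6 samples. At that density the expected count on a class III POU gene was at most 1.93, for Pou3f3 in WT sample 2, and for Pou3f2 it was between 0.153 and 1.45. Pou3f2 was between 11.0 times (WT sample 2) and 218 times (Dlx2OE sample 3) the olfactory receptor density. With this density subtracted, an alternative added after the data had been seen, the log2 fold changes were 3.14, 1.87, 1.80 and 2.41 from Pou3f1 to Pou3f4. All counts of the 4 genes were above a floor of 3 counts per sample, which is 0.0955 to 0.111 CPM and covers counting error only.

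Compared per kilobase of exon, so that the 4 genes can be set beside each other, the order in WT was Pou3f3 with 6.22 ± 0.577, Pou3f4 with 0.410 ± 0.168, Pou3f1 with 0.166 ± 0.0232 and Pou3f2 with 0.0866 ± 0.0168 CPM per kilobase (SD, n = 3). No neighbours in that order overlapped in any sample. In Dlx2OE the order of the means was the same, with 21.7 ± 5.25, 2.16 ± 0.378, 1.42 ± 0.709 and 0.302 ± 0.178 CPM per kilobase. There Pou3f4 and Pou3f1 overlapped, since Pou3f1 in Dlx2OE sample 1 exceeded Pou3f4 in sample 3. The sum of the 4 genes was 6.88 ± 0.404 CPM per kilobase in WT and 25.6 ± 4.45 in Dlx2OE, a 3.72-fold difference.

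Pou3f3 made up most of this sum in every sample. Its share was 90.3% ± 3.10 in WT and 84.1% ± 6.60 in Dlx2OE (SD, n = 3 each), and the lowest share was 76.5% in Dlx2OE sample 1. In that sample Pou3f4 held 12% and Pou3f1 10.7%. The mean share of Pou3f4 was 6.07% ± 2.83 in WT and 8.79% ± 3.06 in Dlx2OE, that of Pou3f1 2.41% ± 0.315 and 6.00% ± 4.12, and that of Pou3f2 1.27% ± 0.30 and 1.13% ± 0.509. The share of Pou3f1 was 2.20%, 2.27% and 2.78% in the WT samples and 10.7%, 3.11% and 4.17% in the Dlx2OE samples, without overlap, and the width of its SD in Dlx2OE came from sample 1. The shares of Pou3f2, Pou3f3 and Pou3f4 overlapped between the genotypes. With coding length in place of exon length the mean share of Pou3f3 in WT was 94.0%.

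**Figure D2:**
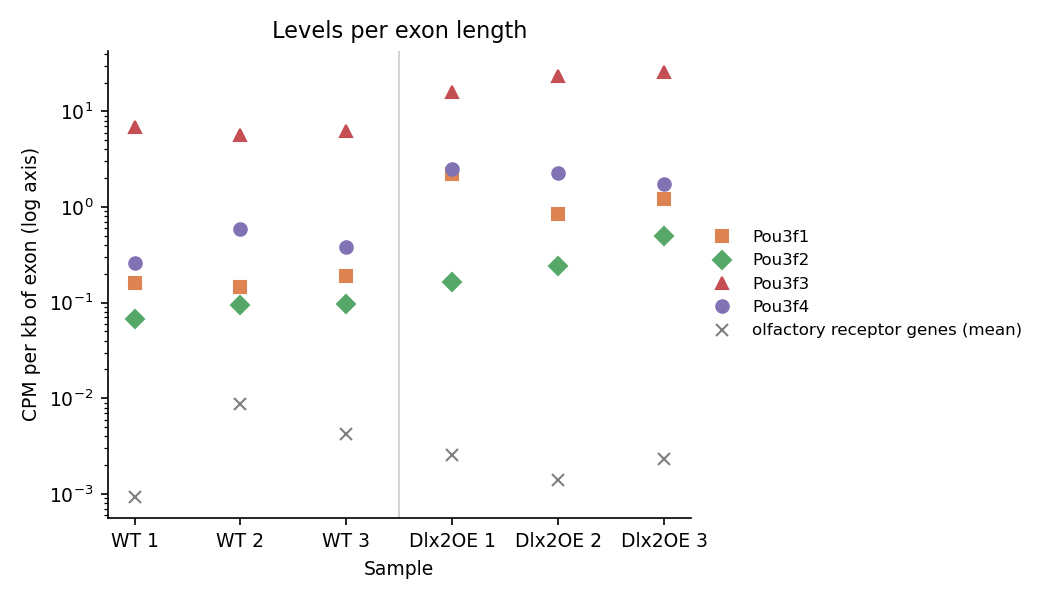
Levels of the 4 genes per kilobase of exon in each sample, in TMM-scaled CPM per kilobase on a log axis. Pou3f3 lies above the other genes in all 6 samples, and Pou3f2 is lowest in each.

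The 4 genes did not share an order among the Dlx2OE samples. Relative to the WT mean of each gene, Pou3f3 was at 2.53, 3.78 and 4.14 times in Dlx2OE samples 1, 2 and 3, and Pou3f2 at 1.88, 2.76 and 5.80 times, both lowest in sample 1 and highest in sample 3. Pou3f4 ran the other way, at 6.05, 5.49 and 4.25 times, and Pou3f1 was also highest in sample 1, at 13.3 times, with 5.03 and 7.34 times in samples 2 and 3. Dlx2 itself was at 2.90, 3.18 and 3.00 times and so varied less between the Dlx2OE samples than any of the 4 genes.

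Markers of other cell types differed between the same samples. The summed level of 12 neuron markers, such as Tubb3 and Stmn2, was 157, 453 and 254 CPM in the WT samples and 290, 861 and 1870 CPM in the Dlx2OE samples. Relative to the WT mean this is 1.01, 2.99 and 6.50 times in Dlx2OE samples 1, 2 and 3, the order in which Pou3f2 and Pou3f3 also stood. All 12 neuron markers had a higher mean in Dlx2OE, with a median log2 fold change of 2.17, and edgeR gave 0 of 12 an adjusted p under 0.05, with 6 at an unadjusted p under 0.05 and 2 under 0.05 by DESeq2 after adjustment. In Dlx2OE sample 1, where the neuron sum was at 1.01 times the WT mean, Pou3f2 was at 1.88, Pou3f3 at 2.53, Pou3f4 at 6.05 and Pou3f1 at 13.3 times theirs. The summed level of 12 epithelial markers was highest in Dlx2OE sample 1, at 1.72 times the WT mean, and close together in samples 2 and 3, at 0.557 and 0.568 times. Its range was 867 to 1539 CPM in WT and 660 to 2044 CPM in Dlx2OE. Of the 12, 4 were higher in Dlx2OE and 8 lower, with 1 higher and 4 lower at an unadjusted edgeR p under 0.05. The 1 higher gene was Krt5, without overlap between genotypes (log2 fold change 1.91 ± 0.57 SE, edgeR adjusted p = 0.0793). At an adjusted p under 0.05, which 6.45% of all genes had, 2 of the 12 fell. They were Krt8 and Krt18, keratins of simple epithelium (log2 fold change -2.11 and -1.85, edgeR adjusted p = 0.00939 and 0.0233). The Krt18 call was lost without WT sample 2, Dlx2OE sample 2 or Dlx2OE sample 3. The part of either cell type in the levels of the class III POU genes was not tested, and in bulk tissue a change in the number of cells cannot be told apart from a change in RNA per cell.

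**Figure D3:**
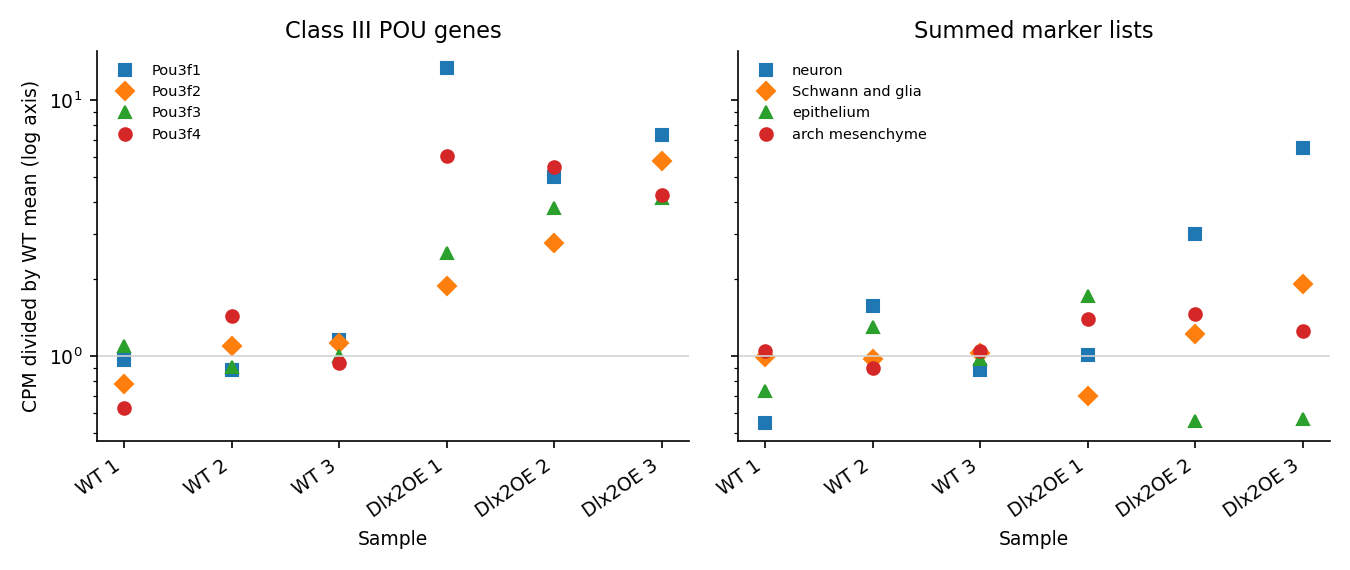
Level in each sample divided by the WT mean, on a log axis, for the 4 class III POU genes on the left and the summed levels of 4 marker lists on the right. Pou3f2, Pou3f3 and the neuron sum are highest in Dlx2OE sample 3, while Pou3f1, Pou3f4 and the epithelial sum are highest in Dlx2OE sample 1.

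The other marker lists were fixed for tissues in which class III POU genes are known to act. Over all genes tested, 6.45% had an edgeR adjusted p under 0.05, the share to set beside the counts below. Schwann cell and glial markers, the setting of Pou3f1, summed to 240 to 254 CPM in WT and 172 to 469 CPM in Dlx2OE, with 0 of 9 tested at an edgeR adjusted p under 0.05 (1 higher and 1 lower at an unadjusted p under 0.05, and 1 lower by DESeq2) and Foxd3 at 0 counts in every sample. Brain markers, the setting of Pou3f2 and Pou3f3, summed to 21.3 to 124 CPM in WT and 30.5 to 97.8 CPM in Dlx2OE, and of 7 tested 5 were lower in Dlx2OE, with a median log2 fold change of -0.93. Relative to the WT mean, the brain sum was at 0.281, 1.63 and 1.09 times in WT samples 1, 2 and 3. In Dlx2OE samples 1, 2 and 3 it was at 1.29, 0.402 and 0.489 times. Among the Dlx2OE samples it was thus highest in sample 1, as were Pou3f1, Pou3f4 and the epithelial sum. The part of brain cells in the levels of the 4 genes was not tested. Emx2 rose from 9.82 to 30.0 CPM (log2 fold change 1.61, edgeR adjusted p = 0.0218, lost without WT sample 1 or WT sample 2). By edgeR 0 of the 7 fell at an adjusted p under 0.05, with 1 lower at an unadjusted p under 0.05 and 1 called down by DESeq2, in both cases Otx2. Otx2 had means of 17.4 and 1.91 CPM and overlapped between genotypes (log2 fold change -3.18 ± 0.86 SE, edgeR adjusted p = 0.0628). Of the markers that define brain regions, Gsx2 had 0 counts in all 6 samples and Eomes 1 count over all samples. Inner ear markers, the setting of Pou3f4, summed to 4.43 to 6.94 CPM in WT and 3.51 to 5.54 CPM in Dlx2OE, and edgeR gave 0 of 4 tested an adjusted p under 0.05, with 1 lower at an unadjusted p under 0.05 and 0 by DESeq2 after adjustment. Eye markers summed to 2.7 to 3.25 CPM in WT and 3.84 to 6.11 CPM in Dlx2OE. Of 4 tested, 1 rose and 0 fell at an edgeR adjusted p under 0.05, with 1 higher and 1 lower at an unadjusted p under 0.05. The gene that rose was Dct of pigment cells (log2 fold change 2.18, edgeR adjusted p = 0.0104, lost without WT sample 2). The lower gene was Crybb1, without overlap (log2 fold change -1.46 ± 0.43 SE, edgeR adjusted p = 0.0771). Six6 had 0, 101 and 7 counts in Dlx2OE samples 1, 2 and 3. The lens gene Crygd was at 0 counts throughout.

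The labelled tissue carried its own markers in all samples. Mesenchyme markers of the facial processes summed to 1465 to 1709 CPM in WT and 2044 to 2379 CPM in Dlx2OE. Over all genes tested, 6.45% had an edgeR adjusted p under 0.05 in either direction and 1.5% were called up. Of the 12 markers, 4 rose at an adjusted p under 0.05, and 0 fell by edgeR at an adjusted or unadjusted p under 0.05 or by DESeq2. Twist2, Tfap2a and Tfap2b passed the fold threshold as well and Twist1 did not (log2 fold change 0.65, edgeR adjusted p = 0.0402). All 4 lost significance without WT sample 1 and without WT sample 2, Tfap2b and Twist1 also without Dlx2OE sample 2 or 3, and Twist1 without Dlx2OE sample 1 too. Over the 12 markers 9 were higher and 3 lower, with a median log2 fold change of 0.45. Dlx2OE sample 1, with the highest epithelial sum, also had the most Twist2 (23.0 CPM), Tfap2a (50.5 CPM) and Tfap2b (214 CPM). Samples 2 and 3 had 12.5 and 14.2, 24.0 and 32.8, and 91.3 and 94.3 CPM. The part of epithelial cells in these levels was not tested. Mandibular markers summed to 35.9 to 73.4 CPM in WT and 54.1 to 73.4 CPM in Dlx2OE, and 0 of 4 tested had a p under 0.05 by edgeR, adjusted or not, or an adjusted p under 0.05 by DESeq2. The 4 tested mandibular genes, Hand2, Dlx3, Dlx5 and Dlx6, each had at least 100 counts in every sample. Hand1, the gene of this list that was not tested, had 4 counts in WT sample 1 and 0 in the other 5 samples.

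The rest of the POU family was described for comparison. Of the 10 other POU genes described here, 4 passed the filter, and 0 of these had an edgeR adjusted p under 0.05, against 6.45% of all genes. At an unadjusted p under 0.05 the count was 1, and DESeq2 gave 1 after adjustment, in both cases Pou4f1. The median log2 fold change of the 4 was 0.26, beside 0.003 over all genes tested. Pou2f1 (Oct1), the broadly expressed octamer-binding factor, had means of 48.2 and 56.2 CPM in WT and Dlx2OE (log2 fold change 0.22, edgeR adjusted p = 0.203). Pou2f2 had a log2 fold change of -0.06 and Pou6f1 of 0.31, with edgeR adjusted p of 0.927 and 0.267. Pou4f1 (Brn3a), a factor of sensory neurons and a member of the neuron marker list, counted 21, 70 and 19 reads in WT and 10, 633 and 1642 in the Dlx2OE samples. Its genotypes overlapped, since Dlx2OE sample 1 was below all WT samples (log2 fold change 4.47 ± 1.38 SE, edgeR adjusted p = 0.0844, with a range from 0.00513 without Dlx2OE sample 1 to 0.212 without Dlx2OE sample 3). Pou4f1 thus stood in the same order in the Dlx2OE samples as the neuron sum. The 6 POU genes that were not tested had at most 127 counts in any sample, and 1 of them had none in all 6. From WT sample 1 to Dlx2OE sample 3, Pou4f3 was counted 2, 10, 5, 1, 70 and 127 times. Pou4f2 ran 1, 4, 0, 0, 21 and 59 over the same samples. Both overlapped between genotypes and stood in the order of Pou4f1 among the Dlx2OE samples. Pou2f3 had 1 read per WT sample against 5, 5 and 6 for Dlx2OE, without overlap. Pou5f2 reached 40 in Dlx2OE sample 3 only, while Pou1f1 ran the other way, from at most 1 to 0. These differences were not tested.

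**Figure D4:**
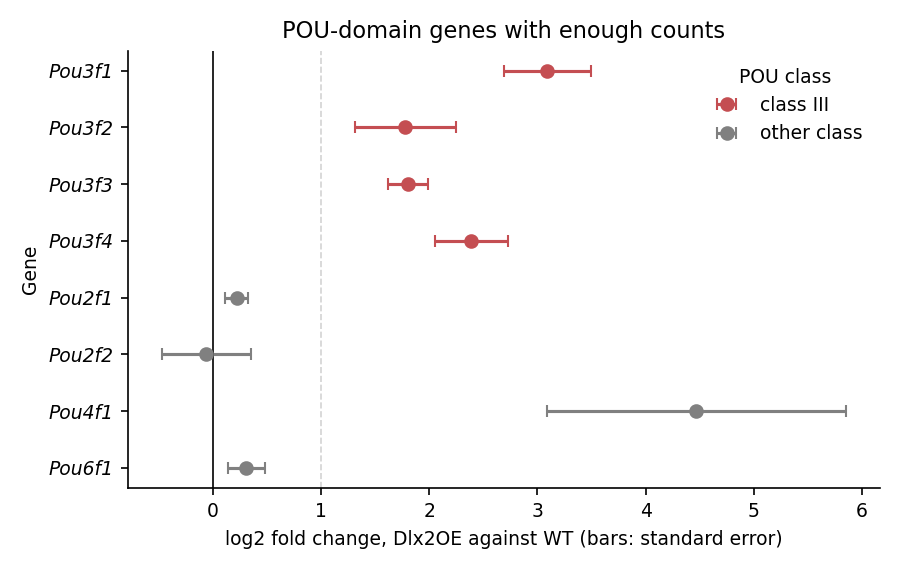
Log2 fold change of Dlx2OE over WT, with its SE, for the 4 class III POU genes and the 4 other POU genes described here that were tested. The class III genes lie between 1.78 and 3.09, and the other POU genes between -0.06 and 4.47, with the widest error for Pou4f1.

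SOX proteins pair with class III POU factors on DNA, and the SOXB1 protein Sox2 and the SOXC protein Sox11 are the best known of these partners. Sox2 fell in Dlx2OE. It was counted 2130, 3566 and 3113 times in WT and 1052, 814 and 814 times in the Dlx2OE samples, with means of 97.0 and 30.5 CPM and no overlap (log2 fold change -1.67 ± 0.19 SE, edgeR adjusted p = 0.00844). The adjusted p stayed under 0.05 in all 6 runs that left out 1 sample, between 0.0047 and 0.0389. Sox11 rose from 429 to 674 CPM, short of the fold threshold (log2 fold change 0.65 ± 0.14 SE, edgeR adjusted p = 0.0373), and was over 0.05 in 4 of the 6 runs. Of the 9 SOX genes in the list, all tested, Sox2 and Sox11 were the only ones with an adjusted p under 0.05 by edgeR, beside 6.45% of all genes. DESeq2 gave 1 higher and 2 lower after adjustment, with Sox9 as the other lower gene, whose edgeR adjusted p was 0.139 (log2 fold change -0.63 ± 0.25 SE, unadjusted p = 0.0340). The list had 0 called up (1 higher at an unadjusted p under 0.05 by edgeR, and 0 called up by DESeq2) and 1 called down, beside 1.62% of all genes called down, with a median log2 fold change of 0.06. While the 4 POU genes were higher in Dlx2OE, Sox2 was thus lower in the same samples.

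A further list held 9 genes that class III POU factors are known to regulate or accompany in neural progenitors, Schwann cells and melanocytes. Of 8 tested, 0 rose and 1 fell at an edgeR adjusted p under 0.05, which 6.45% of all genes had in either direction. The median log2 fold change of the list was 0.04. At an unadjusted p under 0.05, 2 were higher and 1 lower, and DESeq2 gave 1 higher and 1 lower after adjustment. Pmp22, a myelin gene of Schwann cells, was counted 1746, 1763 and 1489 times in WT and 865, 866 and 789 times in the Dlx2OE samples. The genotypes did not overlap, and the mean fell from 55.3 to 28.6 CPM, short of the fold threshold (log2 fold change -0.95 ± 0.11 SE, edgeR adjusted p = 0.00929, between 0.00794 and 0.0528 with 1 sample left out, over 0.05 only without WT sample 2). Nes, the intermediate filament gene whose neural enhancer class III POU factors bind, had means of 104 and 142 CPM (log2 fold change 0.45, edgeR adjusted p = 0.0625). All Dlx2OE samples of Nes lay above all WT samples. Fabp7, another neural progenitor gene with a class III POU site, was counted 407, 582 and 282 times in WT and 135, 1770 and 3454 times in the Dlx2OE samples, so the genotypes overlapped (log2 fold change 2.16, edgeR adjusted p = 0.157). Its lowest sample was Dlx2OE sample 1, the Dlx2OE sample with the lowest neuron sum.

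The surroundings of the 4 genes were examined within 500 kb on either side. Pou3f3 lies between the noncoding RNA genes Pantr1 and Pantr2. Pantr1 (ENSMUSG00000060424, chr1:42590782-42694842, reverse strand) begins 925 bases before the start of Pou3f3 and is transcribed in the other direction. It had 7.72, 7.93 and 4.88 CPM in the WT samples and 15.7, 21.3 and 22.6 CPM in the Dlx2OE samples. All Dlx2OE samples were above all WT samples, and Pantr1 rose 2.91-fold (log2 fold change 1.54 ± 0.24 SE, edgeR adjusted p = 0.0160). Relative to the WT mean the Dlx2OE samples were at 2.29, 3.12 and 3.31 times, beside 2.53, 3.78 and 4.14 times for Pou3f3. The call did not hold without WT sample 1 (adjusted p = 0.0549), WT sample 2 (0.0717) or Dlx2OE sample 2 (0.0597, edgeR in each case), and the other runs that left out 1 sample gave 0.00817 to 0.0442. Pantr2 (ENSMUSG00000097063, chr1:42707061-42713454, reverse strand), which lies 3884 bases beyond the other end of Pou3f3, had 0.308, 0.631 and 0.481 CPM in WT and 0.574, 1.78 and 2.55 CPM in Dlx2OE. Here Dlx2OE sample 1 lay within the WT range, and the difference did not pass (log2 fold change 1.78 ± 0.55 SE, edgeR adjusted p = 0.0867).

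Of 20 annotated genes near Pou3f3, 9 were tested and 2 were called up, beside 1.5% of all genes tested. These were Pantr1 and Gm28175, a long intergenic noncoding RNA gene 391355 bases away (chr1:42261855-42304412). Gm28175 had means of 0.621 and 2.88 CPM (log2 fold change 2.21 ± 0.41 SE, edgeR adjusted p = 0.0264) and lost its call without WT sample 1, WT sample 2, Dlx2OE sample 2 or Dlx2OE sample 3. The median log2 fold change of the 9 was 0.20, and 4 were higher at an unadjusted p under 0.05 by edgeR. DESeq2 called 3 of them up, the third being Pantr2. AC122898.1, a transcript on the strand of Pou3f3 that spans it and shares none of its exon, had 1.09, 0.962 and 0.674 CPM in WT and 1.25, 1.43 and 2.25 CPM in Dlx2OE, without overlap (log2 fold change 0.85 ± 0.34 SE, edgeR adjusted p = 0.144). Around Pou3f1, 18 of 37 annotated genes were tested and edgeR gave 0 an adjusted p under 0.05, with 1 higher and 2 lower at an unadjusted p under 0.05, while DESeq2 gave 1 lower after adjustment. Around Pou3f2, 3 of 13 were tested, with 1 higher and 1 lower at an edgeR adjusted p under 0.05, beside 6.45% of all genes in either direction. Faxc, 485940 bases away, rose from 49.5 to 74.1 CPM (log2 fold change 0.58 ± 0.11 SE, edgeR adjusted p = 0.0280) and the processed pseudogene Gm11878 fell from 0.677 to 0.0335 CPM (edgeR adjusted p = 0.0177), a level near the floor and with reads that a parent gene may share. Both lost significance without WT sample 1, WT sample 2, Dlx2OE sample 2 or Dlx2OE sample 3. None of the 7 annotated genes around Pou3f4 passed the filter.

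**Figure D5:**
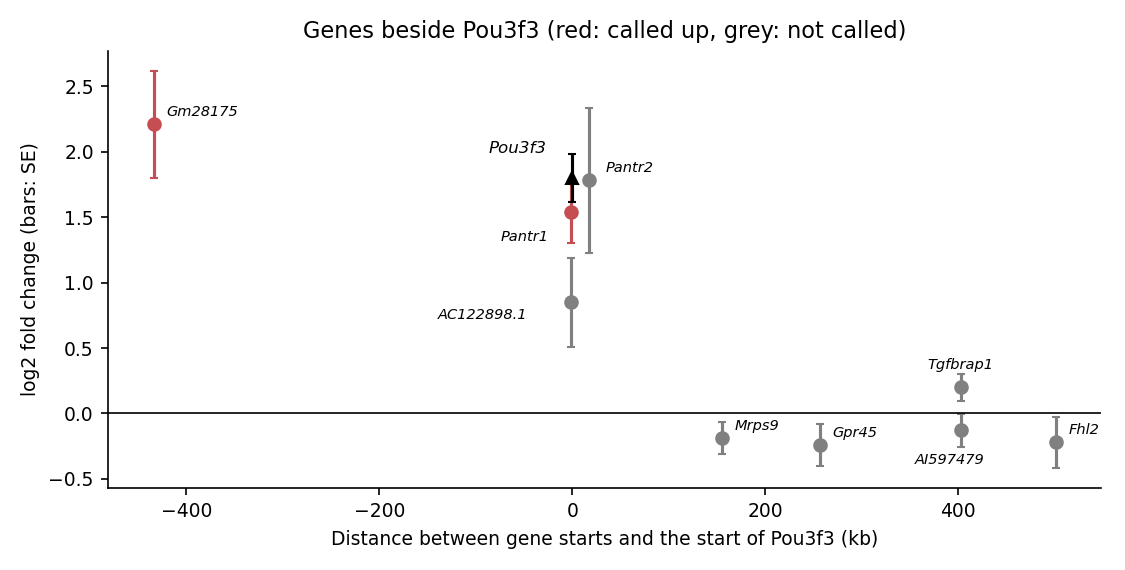
Log2 fold change of Dlx2OE over WT, with its SE, for Pou3f3 and the 9 tested genes within 500 kb, against the distance of their start sites from that of Pou3f3. Pou3f3, Pantr1 and Gm28175 were called upregulated.

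Genes whose levels followed Pou3f3 most closely over the 6 samples were found among 13225 genes with a mean log2 CPM of at least 1, by the root mean square of the differences in log2 level after each gene was centred on its WT mean. The nearest were Pcdh10, a protocadherin, at 0.165, Ndst3, a heparan sulphate sulphotransferase, at 0.199, Dnm3, a dynamin, at 0.215, Dlx2 itself at 0.238 and Plxna4, a semaphorin receptor, at 0.256 on the log2 scale. Their log2 fold changes were 1.88, 1.61, 1.54, 1.60 and 1.58, beside 1.80 for Pou3f3. Pou3f4 stood at rank 191 from Pou3f3, with a distance of 0.691. The genes nearest to Pou3f4 were Cacna2d3, a calcium channel subunit, at 0.181, Tac1, the substance P precursor, at 0.201, Lvrn at 0.277, Tmem132c at 0.284 and Sstr1, a somatostatin receptor, at 0.310, and Pou3f3 stood at rank 54 from it. Pou3f1 and Pou3f2 were below the minimum level for this measure. The 6 samples share their genotype difference with every gene that moved with Dlx2, and these distances are a description without a test.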

How the data were processed

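The authors selected poly(A) RNA from total RNA, sequenced 150-base paired reads, aligned these to mm10 using STAR, obtained gene counts using HTSeq in union mode and deposited raw counts, 1 file per sample. The submitters' processing notes name STAR 2.7.3a and HTSeq 0.12.4. The annotation release and strand setting are not given in the sources used here. Counts on genes were 30332754 to 31308813 in WT and 26155500 to 30570784 in Dlx2OE samples. Symbols and positions were taken from GENCODE M21, which holds 53706 of the 53801 identifiers. Genes were kept by filterByExpr with a minimum count of 10, scaled by TMM and tested on genotype alone with the quasi-likelihood F test of edgeR 4.0.16 in R 4.3.3, adjusted by Benjamini-Hochberg over 17514 genes. A call needed a log2 fold change above 1 or below -1 with an adjusted p under 0.05. The SE is the log2 fold change divided by the square root of F.

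The members and gene lists were chosen with earlier results of these data known. The genes named were the 4 class III POU genes, Dlx2, the other tested POU genes, Pantr1, Pantr2 and neighbours within 500 kb with an adjusted p under 0.05, called list members or, where none was called, the 3 with the smallest p, marker genes with an adjusted p under 0.05, and the 5 nearest genes by pattern. Sox9, Sox11, Otx2, AC122898.1, Hand1, Foxd3, Gsx2, Eomes, Crygd and the neighbours of Pou3f4 by pattern were named after their values were seen. So were Krt5, Crybb1, Six6, the tested mandibular genes and the untested POU genes. Some genes that the rule selects are not reported here and were left out of the lists. Alternatives were DESeq2 1.42.0, RLE factors, library size alone, other filters, a replicate block, a loess correction for length and GC content, omission of mitochondrial and haemoglobin genes, and omission of each sample. Proteins were aligned with MAFFT 7.526 and figures drawn with matplotlib 3.10.9. The scripts were tested on simulated data.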

Additional observations from a re-analysis of the deposited data

Results flagged for a closer look

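The share of read pairs that fell on no annotated gene lies outside every comparison above, and it was higher in each Dlx2OE sample than in the WT samples. It was 5.03%, 5.43% and 5.25% of all read pairs in WT samples 1, 2 and 3, and 5.75%, 7.81% and 14.7% in Dlx2OE samples 1, 2 and 3. Dlx2OE sample 3, with the highest share, also had the highest level of Pou3f2 and Pou3f3 and the lowest of Pou3f4 among the Dlx2OE samples, and the part of these reads in the levels of the 4 genes was not tested.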

How the results depend on the processing

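The log2 fold changes of the 4 class III POU genes kept their direction under all 16 alternatives, and between 2 and 4 of the genes were called. DESeq2 called 447 genes up and 440 down, and fitting without the filter on low counts called 506 and 497, against 262 and 284. At any fold change the counts were 524 and 606. With 1 sample left out they ranged from 39 to 642 up and from 35 to 531 down. The replicate numbers pair nothing in the labels. Deviations of same-numbered samples from their group means correlated at -0.0718, -0.211 and 0.0731. With 3 samples per group such deviations constrain one another, so these values cannot decide whether same-numbered samples share an origin. With the replicate block 202 genes were called up and 196 down, 172 and 154 with the length and GC correction too. The replicate block called 3 of the 4 genes, as without it. Other POU genes called up numbered 1 with DESeq2, 3 without the filter and 0 to 3 with 1 sample left out, against 0. Class III POU associated genes called up numbered 1 without the filter and 0 to 1 with 1 sample left out, and those called down 0 to 1 with 1 sample left out and 1 at any fold change, where 1 SOX gene was also called up. Neighbours called up numbered 4 without the filter and 0 to 4 with 1 sample left out, and those called down 0 with at least 10 counts in every sample and 0 to 1 with 1 sample left out. The log2 fold change of Pantr1 ranged from 1.33 to 1.67 with 1 sample left out. That of Pantr2 passed at 1.77 with DESeq2 and 1.75 without the filter, and ranged from 1.31 to 2.17 with 1 sample left out. With coding length the mean share of the summed level was 1.45% for Pou3f1 and 94.0% for Pou3f3 in WT and 5.17% for Pou3f4 in Dlx2OE. Between 1 and 4 of the 5 genes nearest to Pou3f3 were found again with 1 sample left out. The cause of these changes was not tested, beyond the fewer samples or other genes that each fit held. Pou3f1 and Pou3f2 rest on 11 to 23 counts per WT sample and Pou3f4 on 22 to 52.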
